A study of Saccharomyces cerevisiae with 9 samples.

Results

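A set of 10 genes for proteins of the yeast cell wall, out of 6629 gene identifiers counted in each library, was followed across 3 strains of Saccharomyces cerevisiae by RNA sequencing. They are CWP1 (YKL096W), CWP2 (YKL096W-A), SED1 (YDR077W), CCW12 (YLR110C), CCW14 (YLR390W-A) and TIP1 (YBR067C), which encode mannoproteins carrying a glycosylphosphatidylinositol (GPI) anchor signal, and PIR1 (YKL164C), PIR3 (YKL163W), HSP150 (YJL159W) and CIS3 (YJL158C), which encode proteins with internal repeats. The set was chosen from known results of the same libraries, as wall protein genes of cells growing in air whose levels had already been seen. Their values in the comparisons of strains are therefore a description, and no count over the 10 genes is read as evidence. All 10 passed the filter on low counts, which 5090 genes passed in all.

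The 3 strains share a background with mutations at HIS3, LEU2, MET15 and URA3 (HISDel1 LEU2Del0 MET15Del0 URA3Del0) and were grown exponentially in SD medium, without further treatment. The control carries a nourseothricin resistance marker at HO (HO::NATR), the overexpression strain carries the marker and a TEF promoter before YET3 (NATR::TEFpr-YET3), and the third strain is labelled as a deletion of YET3 by the marker (DelYET3::NATR). YET3 encodes a membrane protein of the endoplasmic reticulum, and the series as a whole concerns sterol synthesis at contacts between organelles. Each strain has 3 libraries, called repeats, and the labels do not say whether these came from separate cultures.

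The yeast wall is a network of glucan and a little chitin covered by an outer layer of heavily mannosylated proteins. GPI-type wall proteins are made in the endoplasmic reticulum with a lipid anchor, travel to the plasma membrane, and are then moved from the anchor onto the glucan of the wall. PIR proteins lack that anchor and are joined to glucan through glutamines in their repeats, by a bond that dilute alkali breaks. Cells growing in air make CWP1, CWP2 and CCW12, and cells short of oxygen, sterol or haem are known to make the mannoproteins of the DAN and TIR genes in place of CWP1 and CWP2.

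The libraries held between 223189 counts (control 3) and 1634021 counts (the library labelled deletion 1), and counts are given below as TMM-scaled CPM, which are counts per library brought to a common total. YET3 stood at 477.1, 476.8 and 479.2 CPM in the control, and at 2261, 2029 and 1341 CPM in the overexpression strain. The libraries labelled YET3 deletion still held YET3 counts, at 728, 328 and 640 CPM, which go against the label unless the row covers sequence outside the deleted part (not given in the sources used here). They are called labelled deletion throughout. HO, labelled as carrying the marker in the control, was highest there, at 28.2 to 57.1 CPM, and stood at 0 to 7.59 CPM in the other 6 libraries. That too goes against a disruption of HO in the control unless the row covers sequence outside the disrupted part. In a principal component analysis 3 libraries stood apart, namely overexpression 3, labelled deletion 1 and labelled deletion 3, along an axis with 47.6% of the variance. The ribosomal DNA was read from 5 rows alone, those with identifiers that begin with YLR154W, which is not the whole share of ribosomal RNA. They took 0.162%, 0.267% and 0.111% of the counts of these 3 libraries, and between 0.817% and 2.42% of the other 6. The comparisons were repeated without the 3 libraries, which leaves 1 labelled deletion library, whose spread is taken to be that of the remaining groups. The part of the split, and of the ribosomal DNA share, in the results was not tested.

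The repeat that defines the PIR proteins is shown first, because it joins both classes of gene in the set. The motif searched in the proteins was glutamine, then isoleucine or valine, any residue, aspartate, glycine, glutamine, then isoleucine, valine or proline, and glutamine. It was found in 10 of 5684 proteins translated from the R64 genome. HSP150 held 11 copies, PIR1 and PIR3 held 8 each, and CIS3 held 1. Among the GPI-type genes CWP1 and CWP2 held 1 copy each, and SED1, CCW12, CCW14 and TIP1 held 0. The other genes with it were PIR5 with 3 copies, and ANS1, TIR1 and TIR2 with 1 each. The coding sequence of the first copy in each of the 6 genes of the set, read from the R64 genome 5′ to 3′ on the coding strand, is given here with the repeat in capitals and 12 flanking bases on each side.
PIR1: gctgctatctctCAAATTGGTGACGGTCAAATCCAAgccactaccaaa
PIR3: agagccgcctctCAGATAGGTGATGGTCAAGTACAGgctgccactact
HSP150: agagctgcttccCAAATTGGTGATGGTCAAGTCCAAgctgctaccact
CIS3: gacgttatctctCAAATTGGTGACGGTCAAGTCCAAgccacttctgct
CWP1: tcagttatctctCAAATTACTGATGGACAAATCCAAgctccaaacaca
CWP2: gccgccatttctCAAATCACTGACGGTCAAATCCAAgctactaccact
TIR1, the hypoxic mannoprotein gene, has the copy shown next, on the plus strand at chrV:175878-175925.
TIR1: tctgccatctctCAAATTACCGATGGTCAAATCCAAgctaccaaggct
The copies lie at chrXI:142580-142627 (PIR1, minus strand), chrXI:144599-144646 (PIR3, plus), chrX:120662-120709 (HSP150, plus), chrX:122709-122756 (CIS3, minus), chrXI:261714-261761 (CWP1, plus) and chrXI:259322-259369 (CWP2, plus). Over these 48 bases CWP1 and CWP2 were identical at 36 positions, CWP1 and TIR1 at 38, CWP1 and PIR1 at 36, and PIR1 and PIR3 at 30.

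Serine and threonine, the residues that carry short mannose chains, made up 42.4% of CCW14 and 41.7% of SED1. The share was between 27.2% (CWP2) and 31.4% (TIP1) in the other GPI-type proteins and between 21.2% (PIR3) and 26.6% (HSP150) in the PIR proteins. The proteins ran from 92 residues in CWP2 to 413 in HSP150. Over aligned residues PIR1 and HSP150 were 84.7% identical, PIR3 and HSP150 79.7%, PIR1 and PIR3 77.7%, and CIS3 was between 52.4% and 60.5% identical to the other PIR proteins. CWP1 and CWP2 were 56.7% identical over the 67 residues that could be aligned, which is 41.3% of the shorter protein. CWP2 and CCW12 were 49.5% identical over 91 aligned residues, which is 48.9% of the shorter protein. The value for CWP1 and CWP2 therefore does not set that pair apart.

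The PIR genes are arranged as pairs of neighbours that also share exact sequence, which bears on how their reads can be counted. PIR1 and PIR3 lie back to back on chromosome XI, with 1581 bases between them, and share an unbroken stretch of 81 bases at chrXI:142701-142781 (PIR1, minus strand) and chrXI:144439-144519 (PIR3, plus strand). HSP150 and CIS3 lie tail to tail on chromosome X, with 574 bases between them, and share 65 bases at chrX:121451-121515 (HSP150, plus) and chrX:122440-122504 (CIS3, minus). The stretches are printed because a read that falls within one cannot be told from a read of the other gene.
PIR1 and PIR3: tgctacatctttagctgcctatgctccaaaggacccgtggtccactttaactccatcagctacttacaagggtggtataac
HSP150 and CIS3: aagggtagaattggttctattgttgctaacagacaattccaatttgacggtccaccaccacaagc
Of all 50-base windows of the coding sequence, 6.14% of PIR1, 6.46% of PIR3, 1.34% of HSP150 and 2.52% of CIS3 were found again outside the gene. The share was 0% for the 6 GPI-type genes. The authors' handling of reads that fit more than 1 gene was not given in the sources used here, so the PIR values are uncertain to that extent.

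The members differed widely in level in the control strain. Levels are ordered here as CPM per kilobase of coding sequence, a scale that may not suit a library that reads only the ends of transcripts. CCW12, a small and abundant wall protein, led with 38110 ± 3982 CPM per kb (SD, n = 3), and ranked 3rd of 5016 genes. CWP2, a small wall mannoprotein, followed with 6580 ± 910 CPM per kb. SED1, a structural wall protein that is abundant in resting cells, and HSP150, a secreted heat-shock PIR protein, stood side by side at 1760 ± 64.4 and 1740 ± 145 CPM per kb, a gap within their spread. CWP1, a wall mannoprotein found at the birth scar, came next at 817 ± 91.7 CPM per kb, and CCW14 at 674 ± 22.4. CIS3 at 582 ± 31.4 and TIP1 at 575 ± 38.1 did not differ beyond their spread. PIR1 stood at 450.4 ± 55.6 CPM per kb and PIR3 was lowest at 60.9 ± 11.1, at rank 2147. Together the 10 genes took between 1.45% (labelled deletion 1) and 3.13% (labelled deletion 3) of the counts of a library, and CCW12 alone took between 57.0% and 69.4% of their sum.

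**Figure D1:**
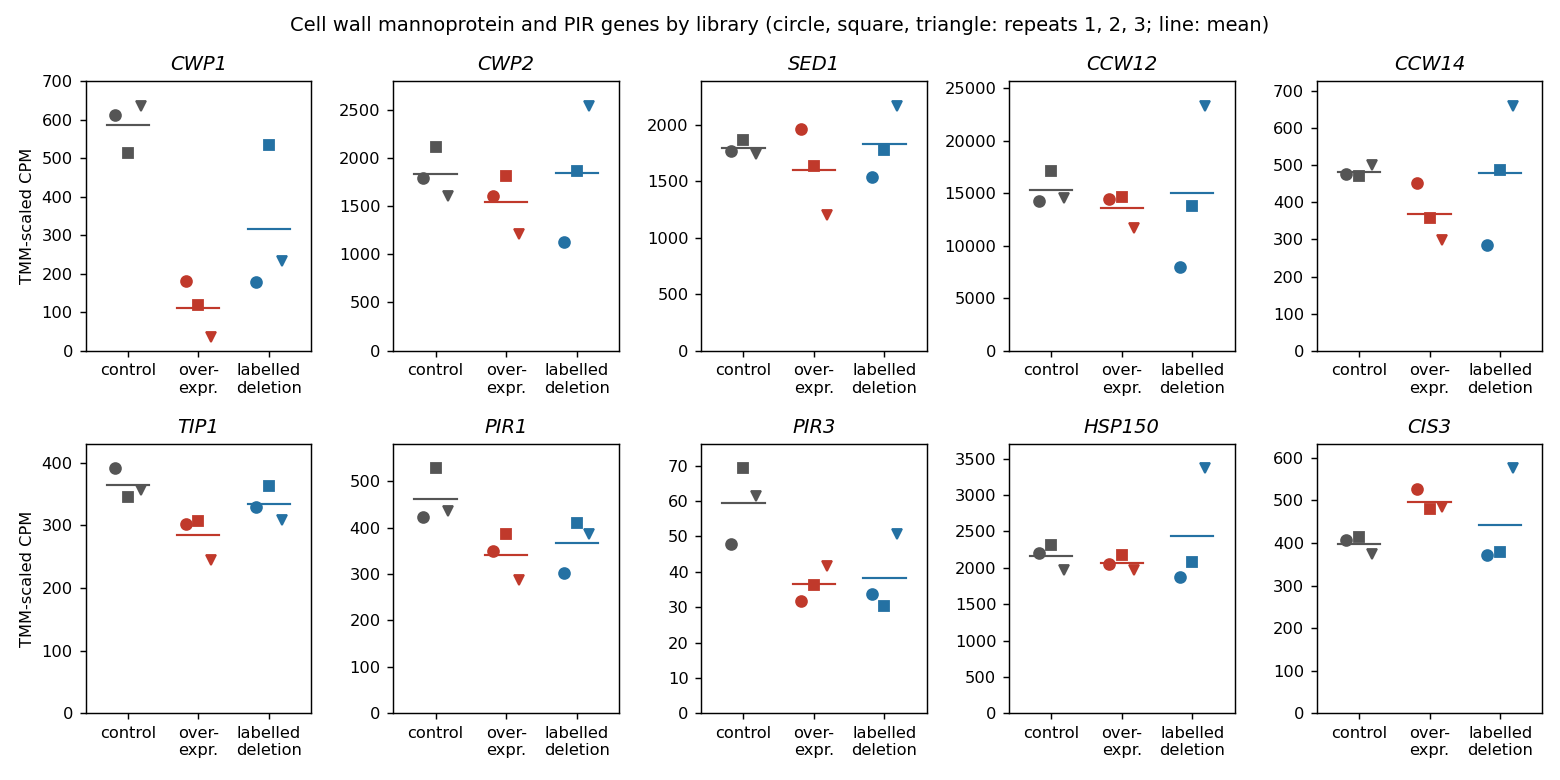
TMM-scaled CPM of each of the 10 genes by strain, on linear axes that start at 0 and differ between panels; circles, squares and triangles are repeats 1, 2 and 3, and lines are means. The CWP1 points of the overexpression strain lie at 180, 118 and 35.0 CPM, all under the control points at 513 to 637 CPM, and the labelled deletion points of CCW12 spread from 7978 to 23359 CPM.

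The first comparison asked how these wall genes stand in cells that overexpress YET3. CWP1 was lower by the largest amount of the 10 and was the only one past the test, and 8 others had smaller negative values. CIS3 alone had a positive value.

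CWP1 was counted 436, 837 and 145 times in control libraries 1 to 3, and 108, 75 and 16 times in overexpression libraries 1 to 3. In CPM it stood at 614, 513 and 637 in the control and at 180, 118 and 35.0 in the overexpression strain. All 3 overexpression libraries lay below every control library, at 30.7%, 20.1% and 5.95% of the control mean. The means were 588 ± 66.1 CPM (SD, n = 3) in the control and 111 ± 72.9 CPM (SD, n = 3) in overexpression. CWP1 fell by 2.38 on the log2 scale (SE 0.50, edgeR quasi-likelihood adjusted p = 0.0452 over all genes tested). Its rank by CPM per kb moved from 312 in the control to 1166 of 5016 genes.

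The size of that difference held in each of 17 alternatives, between -2.90 and -1.96, while the call did not. With the replicate number as a block (replicate block) the log2 fold change was -2.51 and the adjusted p 0.0552. Without control 1, 2 or 3 the adjusted p was 0.188, 0.168 and 0.188, and without overexpression 2 it was 0.208. With overexpression 3, labelled deletion 1 and labelled deletion 3 left out, its value was -1.96 (SE 0.18, adjusted p = 8.18e-09), and 76 genes were then called lower over the whole table. The 3 overexpression libraries also differed among themselves, with a ratio of 5.15 between the highest and the lowest, a spread that 1.61% of the 1550 genes with at least 100 CPM matched or passed.

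The remaining GPI-type genes had smaller values, and none passed the test. CWP2, which lies 1600 bases upstream of CWP1 on the same strand, stood at 1789, 2110 and 1609 CPM in the control and at 1600.4, 1811 and 1210.0 CPM in overexpression. The libraries of these groups overlapped, with a log2 fold change of -0.25 (SE 0.28, adjusted p = 0.879). SED1 stood at 1765, 1864 and 1741 CPM in the control and at 1961, 1638 and 1199 CPM in overexpression, with the highest and the lowest of the 6 values both in the overexpression strain. Its log2 fold change was -0.16 (SE 0.23, adjusted p = 0.904), and 0.01 without overexpression 3.

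CCW12 stood at 14226, 17158 and 14577 CPM in the control and at 14416, 14679 and 11656 CPM in overexpression. The groups overlapped, with a log2 fold change of -0.17 (SE 0.31, adjusted p = 0.925). CCW14, an inner-layer wall glycoprotein, stood at 477, 471 and 501 CPM in the control and at 452, 358 and 298 CPM in overexpression. The groups of CCW14 did not overlap, with a log2 fold change of -0.38 (SE 0.29, adjusted p = 0.787). TIP1, a cold-shock wall mannoprotein of the family that includes the TIR proteins, stood at 391, 345 and 356 CPM in the control and at 302, 307 and 245 CPM in overexpression. Its groups did not overlap either, with a log2 fold change of -0.35 (SE 0.20, adjusted p = 0.746).

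Of the 4 PIR genes, none passed the test. PIR1 stood at 424, 528 and 435 CPM in the control and at 350.5, 386 and 287 CPM in overexpression, without overlap, and its log2 fold change was -0.44 (SE 0.22, adjusted p = 0.739). PIR3 was read with few counts, 34, 113 and 14 in the control and 19, 23 and 19 in overexpression. In CPM PIR3 stood at 47.8, 69.3 and 61.5 against 31.7, 36.3 and 41.6, again without overlap, and its log2 fold change was -0.72 (SE 0.28, adjusted p = 0.600). HSP150 stood at 2198, 2320 and 1965 CPM in the control and at 2058, 2172 and 1965 CPM in overexpression, with a log2 fold change of -0.07 (SE 0.24, adjusted p = 0.966).

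CIS3, the PIR gene with a single repeat, went the other way. It stood at 408, 413 and 374 CPM in the control and at 527, 479 and 484 CPM in overexpression, so that all 3 overexpression libraries lay above every control library. Its log2 fold change was 0.32 (SE 0.22, adjusted p = 0.783), between 0.27 and 0.34 over 17 alternatives, and it was not called in any of them.

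Over the 10 genes, 1 was called lower and 0 higher, where 0.216% of the 5090 genes tested were called lower and 0.629% higher. Libraries of overexpression and control did not overlap for 6 of the 10 genes, 5 lower and 1 higher, beside 8.47% of all genes lower and 8.51% higher. The median log2 fold change of the 10 was -0.30, and that of all genes was -0.00. It was -0.18 both without overexpression 3 and without the 3 libraries that stood apart. The genes were chosen with these values known, and nothing is read from the counts.

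**Figure D2:**
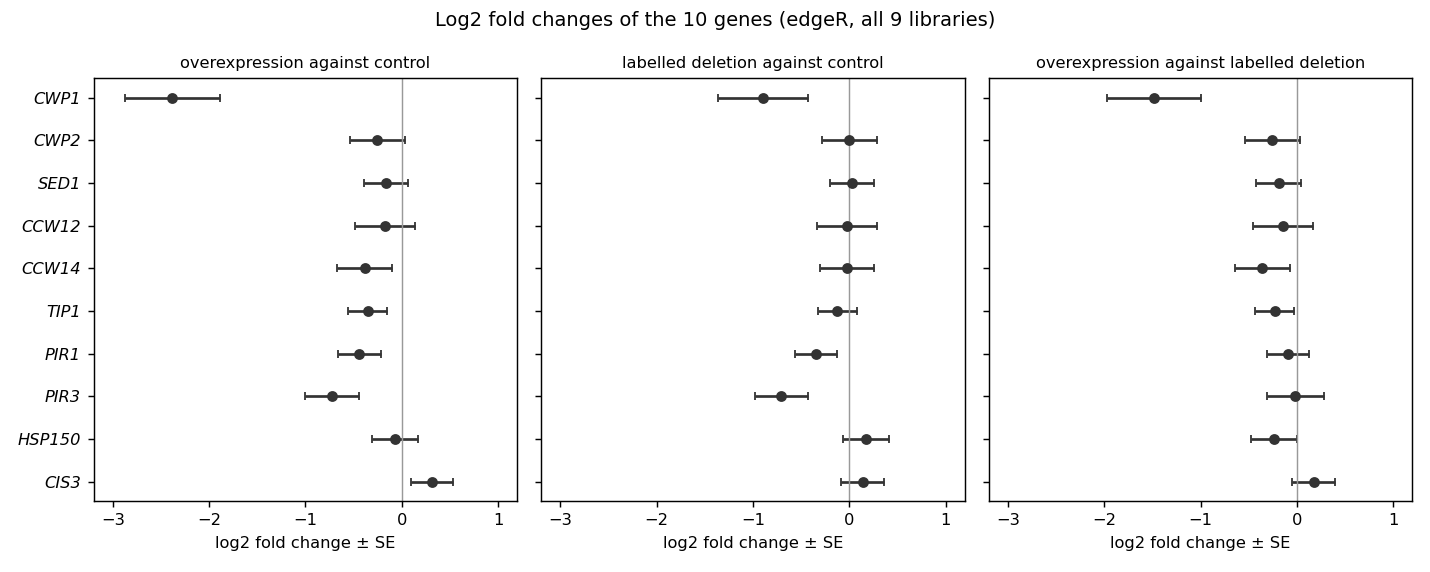
Log2 fold changes of the 10 genes in the 3 comparisons of strains, from the edgeR fit of all 9 libraries; points are estimates and bars are ± 1 SE. CWP1 is farthest from 0 in each panel, at -2.38 for overexpression against control, -0.90 for labelled deletion against control and -1.49 for overexpression against labelled deletion.

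The second comparison set the libraries labelled YET3 deletion beside the control. None of the 10 genes passed the test, while 0.0196% of all genes did, which is 1 gene. At an unadjusted p under 0.05 there was 1 of the 10, PIR3, beside 11.9% of all genes, and the DESeq2 Wald test called 0 of them, beside 0.0982% of all genes. The 3 labelled deletion libraries differed from each other on these genes. In labelled deletion 1 all 10 genes lay below every control library, as did 35.5% of the 5090 genes. In labelled deletion 2, 3 genes lay below (CCW12, PIR1 and PIR3), beside 23.9% of all genes, and 7 lay within the control range. In labelled deletion 3, 6 genes lay above every control library (CWP2, SED1, CCW12, CCW14, HSP150 and CIS3) and 3 lay below (CWP1, TIP1 and PIR1), beside 36.3% of all genes above and 36.1% below. The genes were chosen with these libraries known, and nothing particular to them is read from the counts.

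CCW12 stood at 7978, 13825 and 23359 CPM in labelled deletion 1 to 3. These values were 52.1%, 90.2% and 152.5% of the control mean, on both sides of it. The ratio between the highest and the lowest was 2.93, matched or passed by 6.52% of the 1550 genes with at least 100 CPM. CWP2 ran from 1125 to 1860.0 and 2542 CPM over the same libraries, CCW14 from 286 to 487 and 661, and HSP150 from 1867 to 2077 and 3368. The log2 fold changes of these genes, averaged over such libraries, were close to 0: -0.03 for CCW12, 0.00 for CWP2 and -0.02 for CCW14, and 0.17 for HSP150. Without the 3 libraries that stood apart they were -0.15, 0.02, 0.02 and -0.06 in the same order, from labelled deletion 2 alone.

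SED1 stood at 1534, 1777 and 2169 CPM (log2 fold change 0.03) and CIS3 at 372, 379 and 576 CPM (0.14) in labelled deletion 1 to 3, both with their highest value in labelled deletion 3. TIP1 varied least, at 330.0, 363 and 309 CPM, with a log2 fold change of -0.12. Labelled deletion 1 and 3 both belong to the libraries that stood apart, yet they lay on opposite sides of the control for 6 of the 10 genes. Without labelled deletion 3 all 10 genes had negative values, with a median of -0.31, and without labelled deletion 1 there were 4 negative and the median was 0.19.

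CWP1 differed from that pattern, and so did TIP1 and PIR1, which also lay below every control library in labelled deletion 1 and 3. TIP1 was likewise inside the control range in labelled deletion 2, with smaller differences. CWP1 stood at 177, 535.5 and 234.5 CPM in labelled deletion 1 to 3, with a wider ratio of highest to lowest (3.02) than CCW12. It was low in the 2 libraries that stood apart and inside the control range in labelled deletion 2. As a log2 fold change this was -0.90 (SE 0.47, adjusted p = 0.432). It was -1.54 without labelled deletion 2, and -0.11 without the 3 libraries that stood apart, which leaves 1 labelled deletion library. With a term for the 3 libraries that stood apart the log2 fold change of CWP1 was 0.004. The CWP1 value in the labelled deletion therefore moves with the libraries that stand apart, and the part of that split in it was not tested.

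PIR1 stood at 302, 409.6 and 386 CPM, below every control library, with a log2 fold change of -0.34 (SE 0.22, adjusted p = 0.466). It was the only one of the 10 with such a gap, where 10% of all genes lay lower without overlap. PIR3 stood at 33.7, 30.3 and 50.6 CPM, from 57, 20 and 19 counts, with labelled deletion 3 just inside the control range of 47.8 to 69.3. Its log2 fold change was -0.71 (SE 0.27, adjusted p = 0.400), and the median over the 10 genes was -0.02 beside 0.01 over all genes.

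**Figure D3:**
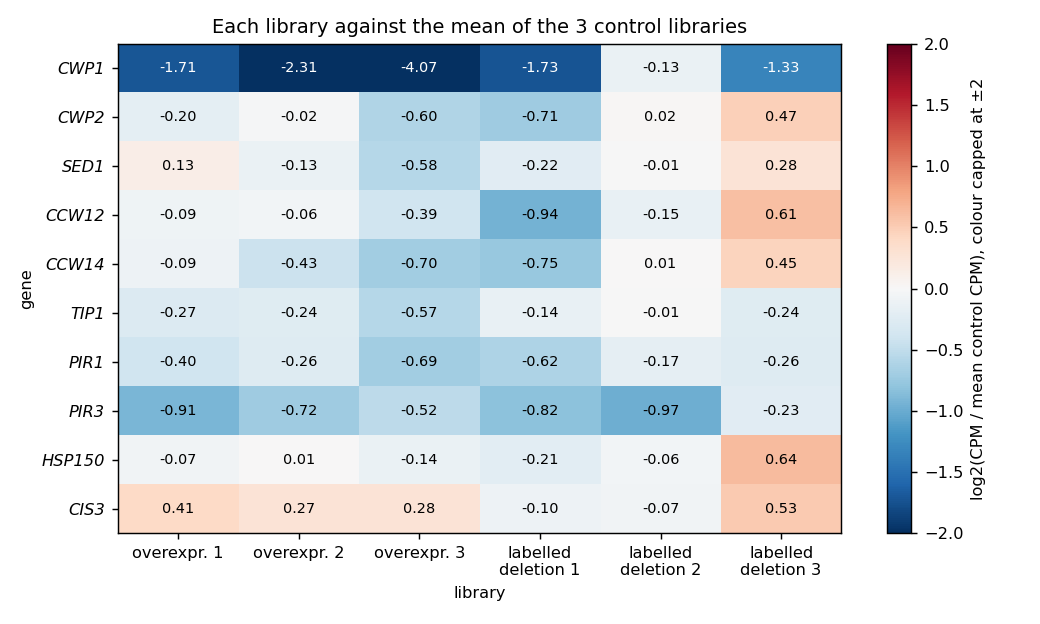
Heat map of the log2 ratio of each overexpression and labelled deletion library to the mean CPM of the 3 control libraries, with genes in rows, libraries in columns and the ratio printed in each cell; the colour scale is capped at 2 units on either side. Blue is below and red above the control mean: labelled deletion 1 is below it for all 10 genes, labelled deletion 3 is above it for 6, and CWP1 in overexpression 3, at 5.95% of the control mean, is the lowest cell.

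The third comparison set overexpression beside the labelled deletion directly. None of the 10 genes was called, where 0.727% of all genes were called in either direction. The DESeq2 Wald test also called 0 of them, beside 1.16% of all genes. By unadjusted p under 0.05 there was 1, beside 6.76% of all genes. This was CWP1, with a log2 fold change of -1.49 (SE 0.49, adjusted p = 0.437). CWP1 in overexpression 1 (180 CPM) lay just above labelled deletion 1 (177 CPM), so that the groups met there. With the 3 libraries that stood apart left out, CWP1 gave -1.85 (SE 0.22, adjusted p = 2.11e-06). That value sets 2 overexpression libraries beside labelled deletion 2 alone, with the spread taken from the other groups, so it has no replicate check in the labelled deletion. TIP1 was the only 1 of the 10 whose libraries did not overlap, at 245 to 307 CPM in overexpression and 309 to 363 CPM in labelled deletion, where 4.18% of all genes lay lower without overlap. Its log2 fold change was -0.23, and the median over the 10 genes was -0.21, with 9 negative, beside -0.02 over all genes. The median was -0.00 without labelled deletion 3 (5 negative), -0.10 without overexpression 3, -0.35 without labelled deletion 1 and -0.06 without the 3 libraries that stood apart (5 negative).

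CWP1 and CWP2, neighbours in tandem on chromosome XI, can be followed side by side through all 9 libraries. CWP2 stayed between 1125 and 2542 CPM, and CWP1 between 35.0 and 637 CPM. As a share of the control mean, CWP2 stood at 87.2%, 98.6% and 65.9% in overexpression 1 to 3, and CWP1 at 30.7%, 20.1% and 5.95%. In labelled deletion 1 to 3 CWP2 stood at 61.3%, 101% and 138%, and CWP1 at 30.2%, 91.1% and 39.9%. Both genes were thus below the control mean in all overexpression libraries and in labelled deletion 1, and they lay on opposite sides of it in labelled deletion 2 and 3. The shared coding stretch between the genes is at most 12 bases long, so coding reads longer than that can be told apart.

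The genes with profiles most like that of CWP1, by Pearson r of log2 CPM over the 9 libraries among 2791 genes of at least 50 CPM, were SEC20 (0.98), YMR262W (0.96), AMN1 (0.95), CCC1 (0.95) and RSF2 (0.93). They were picked for that likeness, and the points share libraries, depth and the split between libraries. SEC20, a protein of vesicle fusion in the early secretory pathway, stood at 48.4, 42.6 and 19.7 CPM in overexpression, and between 71.1 and 74.7 CPM in the control. For the mean of the 4 PIR genes they were LSC1 (0.88), COX13 (0.87), GAS1 (0.87), APE3 (0.86) and MID2 (0.85). The PIR genes did not share a profile, with r from -0.24 (PIR1 and CIS3) to 0.63 (PIR1 and PIR3). Their mean therefore need not follow each of them. Of the same measure, the pair of members with the highest value was CWP1 and TIP1 (0.95), followed by CWP2 and CCW12 (0.93).

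Promoters were searched on both strands over the 500 bases before each start codon, for motifs of regulators of wall genes, the cell cycle, stress and oxygen. CGCGAAA, the motif of the G1 factor Swi4, was in 3 of the 10 promoters and in 5.82% of 6000 promoters. It is shown with its flanks, the motif in capitals, because the matches fall in CWP1 and its neighbour CWP2 and in the most abundant member, at 459, 314 and 293 bases before the start codon.
CWP1, chrXI:260663-260689: aaacccctccCGCGAAAacaaaaaaag
CWP2, chrXI:258929-258955: attgcggaaaTTTCGCGcttatcatta
CCW12, chrXII:370375-370401: gaattccccaTTTCGCGgccacctacg
The sterol regulatory element TCGTATA, the motif of Upc2, was in CWP2 alone among the 10, and in 7% of all promoters. CWP2 has it at 136 bases before the start codon, as shown with its flanks.
CWP2, chrXI:259107-259133: gatacaataaTCGTATAtaaatcaggc
ATTGTT, a core of the motif of the hypoxic repressor Rox1, was in 5 of the 10 (CWP1, SED1, CCW12, CCW14 and TIP1) and in 48.9% of all promoters. AGGGG, the stress motif of Msn2 and Msn4, was in 7 of the 10 and in 34.1% of all promoters, and in CWP1 a match overlaps the flank of the Swi4 motif. These matches are letters in a window and say nothing of binding.

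The genes beside the members on the chromosome gave 1 call against control. The call was in overexpression, where 0.629% of all genes were called higher, and nothing is read from the count. NRG2, a repressor of glucose-repressed genes and the neighbour of TIP1, rose from 43.8 ± 7.49 CPM (SD, n = 3) in the control to 212 ± 53.8 CPM (SD, n = 3) in overexpression, a log2 fold change of 2.21 (SE 0.31, adjusted p = 0.00324). TIP1 lies 1403 bases from it and stood at -0.35 in the same comparison. BAP2, an amino acid permease gene on the other side of TIP1, stood at a log2 fold change of -1.0 (SE 0.26, adjusted p = 0.148). PIR5, next to HSP150, had 0 to 12 counts per library and was not tested.

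The hypoxic mannoproteins are the counterpart of CWP1 and CWP2 in cells short of oxygen. Of 8 listed genes 6 were tested, and 3 rose in overexpression against control, where 0.629% of all genes were called higher. TIR1 stood at 9.85, 23.3 and 22.0 CPM in the control and at 380.5, 432 and 348 CPM in overexpression, higher by 4.38 on the log2 scale (SE 0.30, adjusted p = 1.31e-05). The other genes that rose were TIR3 (log2 fold change 3.15) and DAN1 (log2 fold change 4.99, at 1.41 to 4.4 CPM in the control and 30.6 to 85.1 CPM in overexpression). In control 1 to 3 DAN1 lay at or under the level of 3 counts, which is 4.28, 1.85 and 13.4 CPM there. The size of the DAN1 fold change is therefore uncertain. In the labelled deletion TIR1 stood at 10.6, 10.6 and 10.7 CPM, and none of the 6 was called against control. The level of 3 counts was 1.84, 4.57 and 7.43 CPM in labelled deletion 1 to 3. The closeness of these TIR1 values is therefore no measure of their precision.

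TIR1 was high in the overexpression libraries alone. In labelled deletion 1 and 3, where CWP1 stood at 177 and 234.5 CPM, TIR1 stood at 10.6 and 10.7 CPM. In overexpression 3, where CWP1 was lowest at 35.0 CPM, TIR1 at 348 CPM was the lowest of its group too.

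The other wall lists were taken from textbook functions, with results of these libraries already known, and are described by counts and medians. In overexpression against control 0 of 119 genes were called in 7 of the 8 lists, by edgeR and by the DESeq2 Wald test, where these called 0.845% and 1.2% of all genes. An unadjusted edgeR p under 0.05 was found for 13 of the 119, beside 7.11% of all genes. Of other wall proteins 13 of 15 were tested, with a median log2 fold change of 0.21, and SCW10, a glucanase-like wall protein, had the smallest p (0.97, SE 0.28, adjusted p = 0.226). Of genes for glucan and chitin 24 of 29 were tested, with a median of 0.06, and GSC2, the stress-induced glucan synthase subunit, stood at 1.49 (SE 0.45, adjusted p = 0.283). Mannosylation (22 of 22 tested, median 0.08, PMT5 at 1.31, adjusted p = 0.308) and GPI anchoring (19 of 19 tested, median 0.14, GPI10 at -0.74, adjusted p = 0.686) lay near the median of all genes.

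Genes of the cell wall integrity pathway, 18 of 20 tested, had a median of -0.19, with SDP1, a phosphatase of the Slt2 kinase, at -0.72 (adjusted p = 0.741). All 13 genes of daughter separation and M/G1 had negative values, beside 50.2% of all genes, with a median of -0.59. None of the 13 was called by either test, and 2 had an unadjusted edgeR p under 0.05. AMN1, an inhibitor of mitotic exit, stood at -0.88 (SE 0.24, adjusted p = 0.207). The 10 regulators of aerobic and hypoxic genes had a median of -0.03, and UPC2, the sterol-sensing activator, stood at 1.5 (SE 0.38, adjusted p = 0.131).

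Without the 3 libraries that stood apart, 6 of the 120 genes tested in these 7 lists (5%) were called against control, beside 3.15% of all genes. They are named here after their values were seen. YGP1, a secreted glycoprotein of starved cells, (0.88, adjusted p = 5.03e-04), SCW10 (0.74, adjusted p = 0.0144), GSC2 (1.76, adjusted p = 1.75e-05) and UPC2 (1.72, adjusted p = 3.29e-04) were higher. DSE1 (-0.67, adjusted p = 0.0395) and DSE2 (-0.77, adjusted p = 0.0100), which encode daughter-specific proteins of wall separation, were lower.

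In the labelled deletion against control 0 of 125 genes were called in the 8 lists, by edgeR and by the DESeq2 Wald test, where these called 0.0196% and 0.0982% of all genes. An unadjusted edgeR p under 0.05 was found for 13 of the 125, beside 11.9% of all genes. Medians ran from -0.68 in the hypoxic mannoproteins to 0.26 in GPI anchoring. In overexpression against labelled deletion the DESeq2 Wald test called 6 of the 125 genes, beside 1.16% of all genes. They include DAN4 (2.03, DESeq2 Wald adjusted p = 0.0200), named here after its value was seen, which the main edgeR fit did not call. Among the alternatives, edgeR called DAN4 with DESeq2 size factors (adjusted p = 0.0489) and without the filter on low counts (adjusted p = 0.0434). It also did so with a term for the 3 libraries apart (adjusted p = 0.00342). An unadjusted edgeR p under 0.05 was found for 14 of the 125, beside 6.76% of all genes. By edgeR TIR1, TIR3 and DAN1 were called higher, where 0.727% of all genes were called in either direction. SCW11, a glucanase-like protein of daughter cells, was lower (-1.45, SE 0.29, adjusted p = 0.0374), and UPC2 was higher (1.91, SE 0.39, adjusted p = 0.0416). SCW11 and UPC2 both lost the call without overexpression 1 or 2, without labelled deletion 1 or 3, without the 3 libraries that stood apart, and with only the 6 libraries compared (adjusted p = 0.112 and 0.170 for SCW11 and UPC2). UPC2 lost it also with the replicate block (adjusted p = 0.0520). Over all 17 alternatives the log2 fold change lay between -1.60 and -1.03 for SCW11 and between 1.41 and 2.39 for UPC2.

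**Figure D4:**
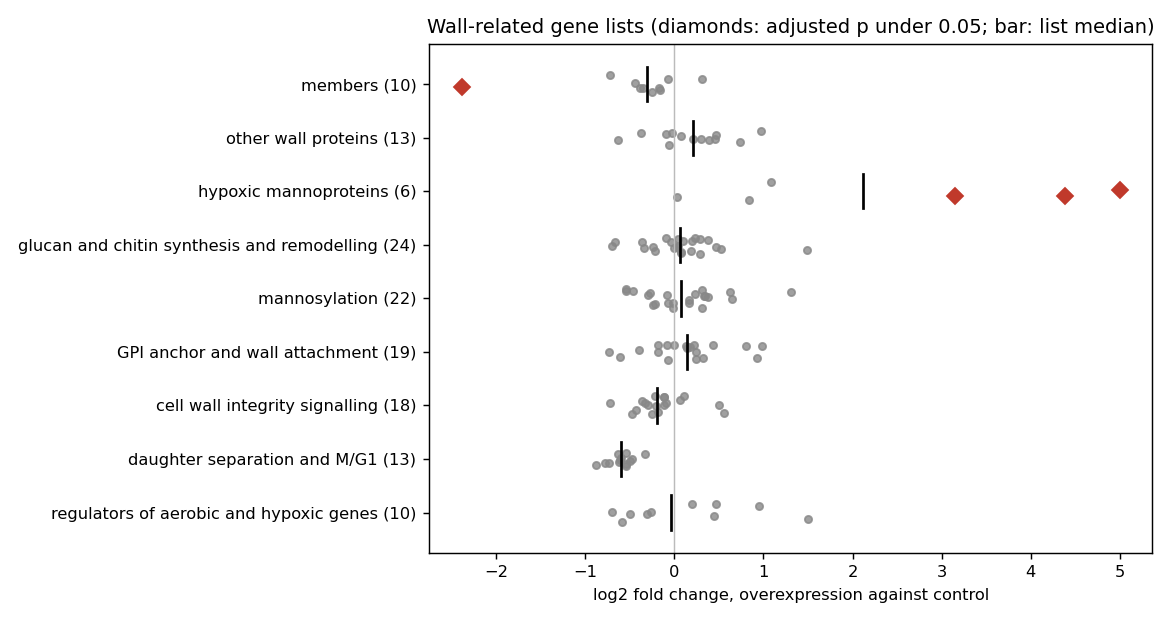
Log2 fold change of overexpression against control for each tested gene of the 10 members and the 8 lists, with 1 point per gene, a red diamond where the adjusted p was under 0.05, a bar at the median, and the number of genes in brackets. The hypoxic mannoproteins have a median of 2.12 and hold 3 of the 4 diamonds, with CWP1 the other, and daughter separation and M/G1 has a median of -0.59.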

How the data were processed

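The authors deposited 1 table of whole-number counts per gene for each of the 9 libraries. The tools cutadapt and UMI-tools and the build R64 are named per the submitters' processing notes. Aligner, counting window, strand setting and handling of shared reads were not given in the sources used here, so antisense reads cannot be told apart. Of 6629 identifiers 5956 matched an R64 locus tag of NCBI RefSeq, which gave names, coordinates and sequences. Identifiers repeated in a table kept their first row.

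Counts were filtered with filterByExpr (minimum count 10, minimum total 15), scaled by TMM and fitted with edgeR 4.0.16 in R 4.3.3, with all 9 libraries and 1 coefficient per strain. The quasi-likelihood F-test was adjusted by Benjamini-Hochberg over 5090 genes at 0.05, and adjusted p-values come from it unless another is named. Limma 3.58.1 and DESeq2 1.42.0 were also used. A standard error is the absolute log2 fold change over the root of its F value. The procedure was tested on simulated counts that held no split between libraries, so that test does not cover its behaviour with the split. In libraries of this depth 3 counts stand for 1.84 to 13.4 CPM, and counting error is the only error that such a floor covers.

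The 10 members and the lists were chosen with earlier results of these data known. The named genes are the members, YET3 and HO, called genes of each list (up to 4) or the 1 with the smallest p, chromosomal neighbours, and the 5 genes most like CWP1 and the PIR mean. Those outside this rule are marked. Replicates of 1 strain differed by more than sampling noise (chi-square per degree of freedom 1.58 to 19.1), so none were merged. Since separate cultures are not stated, p-values measure the spread between libraries, which may be technical. Same-numbered libraries had correlations of deviations from -0.46 to 0.51. The largest were between overexpression and labelled deletion, the groups that hold the libraries that stood apart. They cannot settle whether the numbers pair the samples. Alternatives were another scaling, the DESeq2 Wald test, other filters, only the 6 libraries compared, the replicate block, removal of rows, a term for or removal of the 3 libraries apart, summed repeated identifiers, and each library left out. Of the promoter motifs searched, 1 is not reported here.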

Additional observations from a re-analysis of the deposited data

How the results depend on the processing

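In overexpression against control the count of members called was 1, beside 0.845% of all genes. It was 0 with the replicate block, beside 0.53% of all genes, where CWP1 gave -2.51 (adjusted p = 0.0552). With each library left out in turn it ran from 0 to 1, beside 0.212% to 0.885% of all genes. In labelled deletion against control it was 0 in every alternative run, beside 0.0152% to 0.0982% of all genes. In overexpression against labelled deletion it was 0, beside 0.727% of all genes. It was 1 (CWP1, -2.05) with a term for the 3 libraries apart, beside 2.08% of all genes. With the 3 libraries left out CWP1 gave -1.85, which rests on 1 labelled deletion library. The count was 0 with each library left out in turn, beside 0.307% to 1.42% of all genes. Whether the replicate numbers pair the samples is not known, and the block moved no other call among the members. The whole-table counts in overexpression against control were 11 lower and 32 higher, 4 and 23 with the replicate block, 41 and 72 with the term, and 76 and 90 without the 3 libraries, and the cause of these shifts was not tested. The depth gave PIR3 between 14 and 113 counts per library, and sequence shared between PIR genes leaves their counts uncertain.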
